A study of Mus musculus with 6 samples.

Results

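The 37 genes described here encode the enzymes, regulators and transporters of glycolysis below glucose phosphorylation, of the pentose phosphate pathway and of glyceroneogenesis, with the glycerol phosphate dehydrogenases Gpd1l and Gpd2. They are the rows of the deposited gene tables whose identifier carries one of the member symbols in GENCODE M21 (GRCm38). The tables hold 54752 genes, and 38 rows carry a member symbol, because Aldoa has a second identifier. That second row held 222 expected counts in the 3 adipocyte libraries together and 23 in the 3 preadipocyte libraries, and was kept apart from the main Aldoa row. RNA of 3T3-L1 cells, a mouse embryonic line that forms fat cells in culture, was sequenced in 3 adipocyte and 3 preadipocyte libraries. The labels give strain C57BL/6J, tissue embryo and no treatment for both groups, and 1 description of the medium for both, which lists BCS, FBS and DMI without saying which group received DMI. All 6 samples carry the source name Adipocyte, so the groups were read from their titles and cell type labels, and the day of harvest is not given in the sources used here. The cells are 1 established line, and nothing in the labels says that the libraries came from separate cultures, so the p-values speak only of the scatter among these 6 libraries, which could be technical.

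Glycolysis splits glucose to pyruvate, and lactate dehydrogenase and monocarboxylate transporters carry the end product to lactate and out of the cell. The committed step, phosphofructokinase, is activated by fructose 2,6-bisphosphate, which the bifunctional PFKFB enzymes make and break. The pentose phosphate pathway takes glucose 6-phosphate through an oxidative arm that makes NADPH and a non-oxidative arm that returns sugar phosphates to glycolysis. In fat cells the NADPH serves fatty acid synthesis, and the backbone of triglyceride, glycerol 3-phosphate, is made from the triose phosphate of glycolysis or, by glyceroneogenesis, from pyruvate through phosphoenolpyruvate carboxykinase (PEPCK). Most steps have several isozymes named for the tissue in which they were first found.

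Most of these genes were higher in adipocytes. Of the 37, 35 passed the filter on low counts, and 31 were higher and 3 lower in adipocytes past an adjusted p of 0.05. The test was edgeR's quasi-likelihood F-test, with p-values adjusted by the Benjamini-Hochberg method over 14726 genes, of which 73.5% were called in either direction. The 31 are 88.6% of those tested, where 35.7% of all tested genes were called higher, and 3 members are 8.57%, where 37.9% were called lower. The 3 lower genes were Pfkfb2, Eno2 and Eno3, and H6pd passed in neither direction. At least 2-fold differences were found for 27 members upward, against 19.3% of all tested genes, and for 2 members downward, against 21.8%. The 3 adipocyte values lay above the 3 preadipocyte values in 31 members and below them in 3, where the shares of all tested genes were 36.8% and 39.7%, or 76.5% together. The median log2 fold change was 2.07 over the 35 members and -0.06 over all tested genes. Aldoc had 1 count in all 6 libraries together and Fbp2 had 0, so neither was tested.

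**Figure D1:**
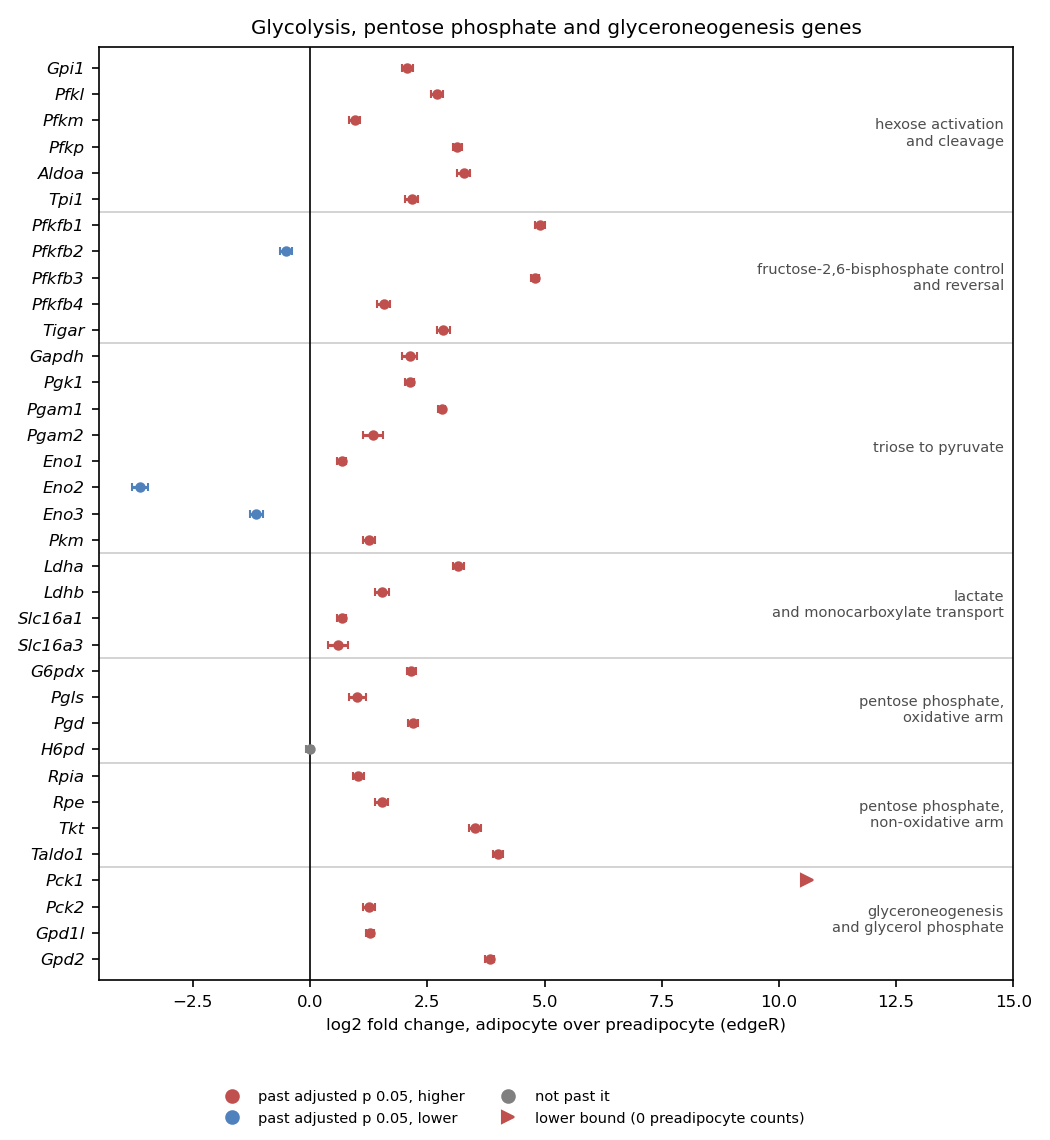
Log2 fold change of the 35 tested members (x axis, adipocyte over preadipocyte, edgeR on 3 libraries per group), grouped by pathway step on the y axis. Points are fitted values with their standard errors, red for higher, blue for lower and grey for not past the threshold, and the triangle is the lower bound of Pck1. Pfkfb2, Eno2 and Eno3 lie left of 0 and H6pd lies on it.

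Each library held between 22496486 and 26314076 expected counts in total. Values compared between groups are CPM, counts relative to the library size, scaled by TMM factors of 0.88 to 0.902 in adipocyte and 1.106 to 1.128 in preadipocyte libraries, and levels of different genes are compared in TPM, which is per length. Small differences depend on these choices. Over all tested genes the median log2 fold change was -0.06 under TMM and -0.19 under upper-quartile scaling. It was -0.39 under total counts and -0.42 under limma on log2(TPM + 1). Higher genes made up 48.5% of calls under TMM, and 42.3%, 34.3% and 28.2% under these other settings in that order. Other choices moved the share the other way. It was 50.8% under RLE size factors. It was 51.5% with DESeq2 and 51.4% without the low-count filter, both over 26772 genes. The 5 adipocyte markers, with Fabp4 the most abundant, summed to 15620 to 18910 CPM in adipocyte and 31.92 to 35.11 CPM in preadipocyte libraries. The 5 preadipocyte markers, led by Dlk1, summed to 239.2 to 304.9 CPM in adipocyte and 4725 to 5701 CPM in preadipocyte libraries, and the 5 cycling markers, of which Top2a was the most abundant over all 6 libraries and Cdk1 in adipocytes, to 20.38 to 22.27 and 93.19 to 100.8 CPM in adipocyte and preadipocyte libraries. In such bulk samples a change in the share of a cell type and a change in RNA per cell cannot be told apart. Markers of hepatocytes (Apoa1 the most abundant), macrophages (Csf1r), endothelium (Pecam1) and red cells (Alas2) summed to at most 0.1731, 1.682, 0.6923 and 0.2803 CPM in adipocyte libraries and to at most 0.1565, 2.396, 0.9086 and 0.0395 CPM in preadipocyte libraries. Library 1 was the highest of its group for many members, 23 of 35 in adipocytes (65.7%, against 40.6% of all tested genes) and 26 of 35 in preadipocytes (74.3%, against 45.9%). Without both libraries numbered 1 the counts were again 31 higher and 3 lower. Together the 37 genes held 1.98%, 1.61% and 1.76% of all TPM in adipocyte libraries 1, 2 and 3, against 0.515%, 0.461% and 0.478% in preadipocyte libraries.

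The promoters of the genes with the largest log2 fold changes are shown because these genes mark the ends of the range, Pck1 and Pfkfb1 upward and Eno2 and Eno3 downward. The sequences are RefSeq windows on GRCm38.p6, 5′ to 3′ on the gene's strand, from 250 bases before the transcription start to 50 after it, and capitals mark motif matches. Pck1 lies at chr2:173152823-173153122 on the plus strand, Pfkfb1 at chrX:150587993-150588292 on the plus strand, Eno2 at chr6:124769624-124769923 on the minus strand and Eno3 at chr11:70656926-70657225 on the plus strand. For Pfkfb1 the table holds 4 start windows, and the one that covers the start of the gene in GENCODE is printed.
Pck1: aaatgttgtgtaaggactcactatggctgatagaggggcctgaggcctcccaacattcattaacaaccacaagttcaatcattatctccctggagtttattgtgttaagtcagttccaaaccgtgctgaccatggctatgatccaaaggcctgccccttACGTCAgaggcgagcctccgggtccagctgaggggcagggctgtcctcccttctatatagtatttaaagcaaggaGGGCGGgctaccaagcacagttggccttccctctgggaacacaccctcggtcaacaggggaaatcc
Pfkfb1: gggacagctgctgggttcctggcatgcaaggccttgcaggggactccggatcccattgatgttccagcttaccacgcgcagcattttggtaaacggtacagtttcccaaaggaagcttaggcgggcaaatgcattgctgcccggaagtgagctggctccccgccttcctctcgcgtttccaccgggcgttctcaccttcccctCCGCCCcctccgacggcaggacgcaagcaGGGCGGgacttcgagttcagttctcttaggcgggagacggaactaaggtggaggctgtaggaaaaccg
Eno2: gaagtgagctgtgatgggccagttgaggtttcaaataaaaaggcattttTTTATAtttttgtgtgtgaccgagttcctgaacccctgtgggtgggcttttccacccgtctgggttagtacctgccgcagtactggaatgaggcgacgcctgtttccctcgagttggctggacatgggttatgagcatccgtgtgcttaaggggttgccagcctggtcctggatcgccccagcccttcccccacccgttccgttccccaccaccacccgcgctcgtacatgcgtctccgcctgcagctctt
Eno3: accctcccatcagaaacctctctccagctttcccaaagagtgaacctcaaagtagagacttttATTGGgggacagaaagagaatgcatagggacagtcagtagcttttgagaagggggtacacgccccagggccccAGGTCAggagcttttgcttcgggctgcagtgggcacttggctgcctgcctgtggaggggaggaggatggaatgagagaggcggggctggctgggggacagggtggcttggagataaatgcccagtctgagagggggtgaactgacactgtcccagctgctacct

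In the Pck1 window the cAMP-response core TGACGT was found on the opposite strand 91 bases before the start, printed as ACGTCA, and a GC box 16 bases before it. The Pfkfb1 window held GC boxes 47 and 18 bases before the start. The Eno2 window held only the TATA letters, on the opposite strand and 201 bases before the start. The Eno3 window held a nuclear receptor half-site 114 bases and a CCAAT motif on the opposite strand 187 bases before the start. These matches are letters in a window and do not show binding, and none of the motifs was found in all 4 windows.

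All 37 members had a promoter in the table, and the first listed start of each gene was used to compare them with all 27025 promoters. The GC box was found in 25 of 37 member promoters (67.6%) and in 35.9% of all promoters. The hypoxia-response core ACGTG was found in 13 (35.1%) and in 19.7% of all promoters, and the E-box CACGTG, which contains those letters, in 6 (16.2%) and in 7.24%. TGACGT was found in 6 (16.2%) and in 7.64% of all promoters, and CCAAT in 17 (45.9%) and in 37.9%. The half-site AGGTCA was found in 5 (13.5%) and in 16.0% of all promoters, and TATAAA in 1 (2.7%) and in 14.2%. Member promoters also had a higher median GC content than all promoters, 57.3% against 52.7%, and the part of GC content in these motif shares was not tested.

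The genes that take glucose 6-phosphate to triose phosphates rose, 6 of the 6 tested, 5 of them at least 2-fold, with a median log2 fold change of 2.43. Gpi1 (ENSMUSG00000036427.5, chromosome 7, 34201330 to 34230336), which converts glucose 6-phosphate to fructose 6-phosphate, had 926.5, 724 and 810.4 CPM in adipocyte libraries 1, 2 and 3, against 220.4, 181 and 186 CPM in preadipocyte libraries 1, 2 and 3. Every adipocyte library was above every preadipocyte library, by 2.07 in log2 units (SE 0.12, edgeR adjusted p = 5.03e-07). Aldoa (ENSMUSG00000030695.16, chromosome 7, 126795234 to 126800751), the aldolase that cleaves fructose 1,6-bisphosphate, had 5042, 3900 and 3883 CPM in adipocytes and 503, 393 and 424 CPM in preadipocytes. The difference was 3.28 in log2 units (SE 0.14, edgeR adjusted p = 8.41e-08), and per length Aldoa was the most abundant single row among the members in adipocytes. Its TPM was over 99% of the aldolase step in every library, with the brain form Aldoc at or near 0. Tpi1, which interconverts the triose phosphates, averaged 1476 ± 231 CPM in adipocytes and 329 ± 45.8 CPM in preadipocytes (SD, n = 3 each), a log2 fold change of 2.17.

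The 3 phosphofructokinase genes rose by different amounts, and the leading isozyme differed between the states. Pfkl, the liver form (ENSMUSG00000020277.10, chromosome 10, 77986947 to 78010083), had 503, 393 and 433 CPM in adipocytes and 77.5, 61.3 and 65.3 CPM in preadipocytes. Pfkp, the platelet form (ENSMUSG00000021196.14, chromosome 13, 6579768 to 6648777), had 229, 199 and 232 CPM in adipocytes and 26.1, 24.5 and 24.3 CPM in preadipocytes. Pfkm, the muscle form (ENSMUSG00000033065.14, chromosome 15, 98092589 to 98132451), had 143, 117 and 114 CPM in adipocytes and 72.1, 60.2 and 60.9 CPM in preadipocytes. The groups overlapped in none of the 3. The log2 fold changes were 2.70 for Pfkl (SE 0.13, edgeR adjusted p = 1.38e-07), 3.14 for Pfkp (SE 0.09, adjusted p = 8.50e-09) and 0.95 for Pfkm (SE 0.11, adjusted p = 6.01e-05). Per length, Pfkl led in each adipocyte library with 52.7%, 50.6% and 51.6% of the step's TPM, against 38.9%, 37.3% and 38.5% in preadipocytes. Pfkm held 18.9%, 19.1% and 16.6% in adipocytes, against 46.5%, 46.2% and 45.3% in preadipocytes, where it led. Pfkp held 30.2% ± 1.7 in adipocytes and 15.8% ± 1.0 in preadipocytes (SD, n = 3 each). The step total was 327 ± 29.3 TPM in adipocytes and 95.9 ± 6.54 TPM in preadipocytes. With 3 libraries against 3, the two-sided exact permutation test of such a share cannot go below 0.1, and each of these 3 shares gave 0.1. In all, 27 shares were tested in this way, and none can pass 0.05 alone or adjusted. Pfkp overlaps its neighbour Pitrm1, which shares 14.6% of its 31-base words with Pfkp, and strand is not stated, so part of the Pfkp reads may be of Pitrm1. Other members share words with other genes too. Among these, Fam129c shares 20.2% of its words with Pgls, Gm49759 17.6% with Pkm and Kansl1l 7.9% with Rpe.

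The genes that set fructose 2,6-bisphosphate moved in both directions: 4 of 5 tested rose and Pfkfb2 fell. Pfkfb3, the form with the strongest kinase activity (ENSMUSG00000026773.19, chromosome 2, 11471433 to 11554077), had 313, 320 and 337 CPM in adipocytes and 11.9, 11.6 and 11.5 CPM in preadipocytes. Pfkfb1, the liver and muscle form whose promoter is printed above (ENSMUSG00000025271.13, chromosome X, 150588229 to 150643878), had 72.5, 63.1 and 62.0 CPM in adipocytes and 2.08, 2.29 and 2.21 CPM in preadipocytes. These were the largest differences among members with counts in both states, 4.79 for Pfkfb3 (SE 0.082, edgeR adjusted p = 1.43e-09) and 4.90 for Pfkfb1 (SE 0.11, adjusted p = 3.13e-09) on the log2 scale. At least 8-fold higher values were found for 9 of the 35 members, against 5.11% of all tested genes. Pfkfb2, the heart form (ENSMUSG00000026409.14, chromosome 1, 130689182 to 130729253), had 11.6, 14.7 and 16.3 CPM in adipocytes and 20.4, 20.8 and 19.4 CPM in preadipocytes. All 3 adipocyte libraries lay below the preadipocyte libraries, by -0.51 in log2 units (SE 0.13, edgeR adjusted p = 0.006). With the effective length of each library as an offset the value was -0.37 and no longer passed (adjusted p = 0.063). Pfkfb4, the testis form, averaged 28.5 ± 4.89 CPM in adipocytes and 9.57 ± 0.726 CPM in preadipocytes, a log2 fold change of 1.57. Tigar, a phosphatase that opposes the PFKFB kinases, averaged 28.0 ± 1.48 CPM in adipocytes and 3.90 ± 0.695 CPM in preadipocytes (SD, n = 3 each), a log2 fold change of 2.84. The bisphosphatase gene Fbp2 had 0 counts in every library, which at 3 counts per group allows up to 0.0443 CPM in adipocytes and 0.0383 CPM in preadipocytes.

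Within the PFKFB step the order of the isozymes turned over. Pfkfb3 held 54.3%, 56.1% and 58.6% of the step's TPM in adipocytes, against 18.7%, 18.1% and 18.7% in preadipocytes. Pfkfb2 held 3.02%, 4.45% and 4.66% in adipocytes, against 44.7%, 46.0% and 44.8% in preadipocytes, where it led. Pfkfb1 held 33.6%, 32.0% and 30.1% in adipocytes and 10.3%, 12.6% and 13.3% in preadipocytes, and Pfkfb4 held 7.72% ± 1.3 in adipocytes and 24.3% ± 1.8 in preadipocytes (SD, n = 3 each). The step total was 183 ± 5.08 TPM in adipocytes and 30.2 ± 1.49 TPM in preadipocytes. The ratio of Pfkfb3 to Pfkfb2 TPM was 18.0, 12.6 and 12.6 in adipocytes and 0.417, 0.394 and 0.417 in preadipocytes (two-sided exact permutation p = 0.1, the smallest possible).

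**Figure D2:**
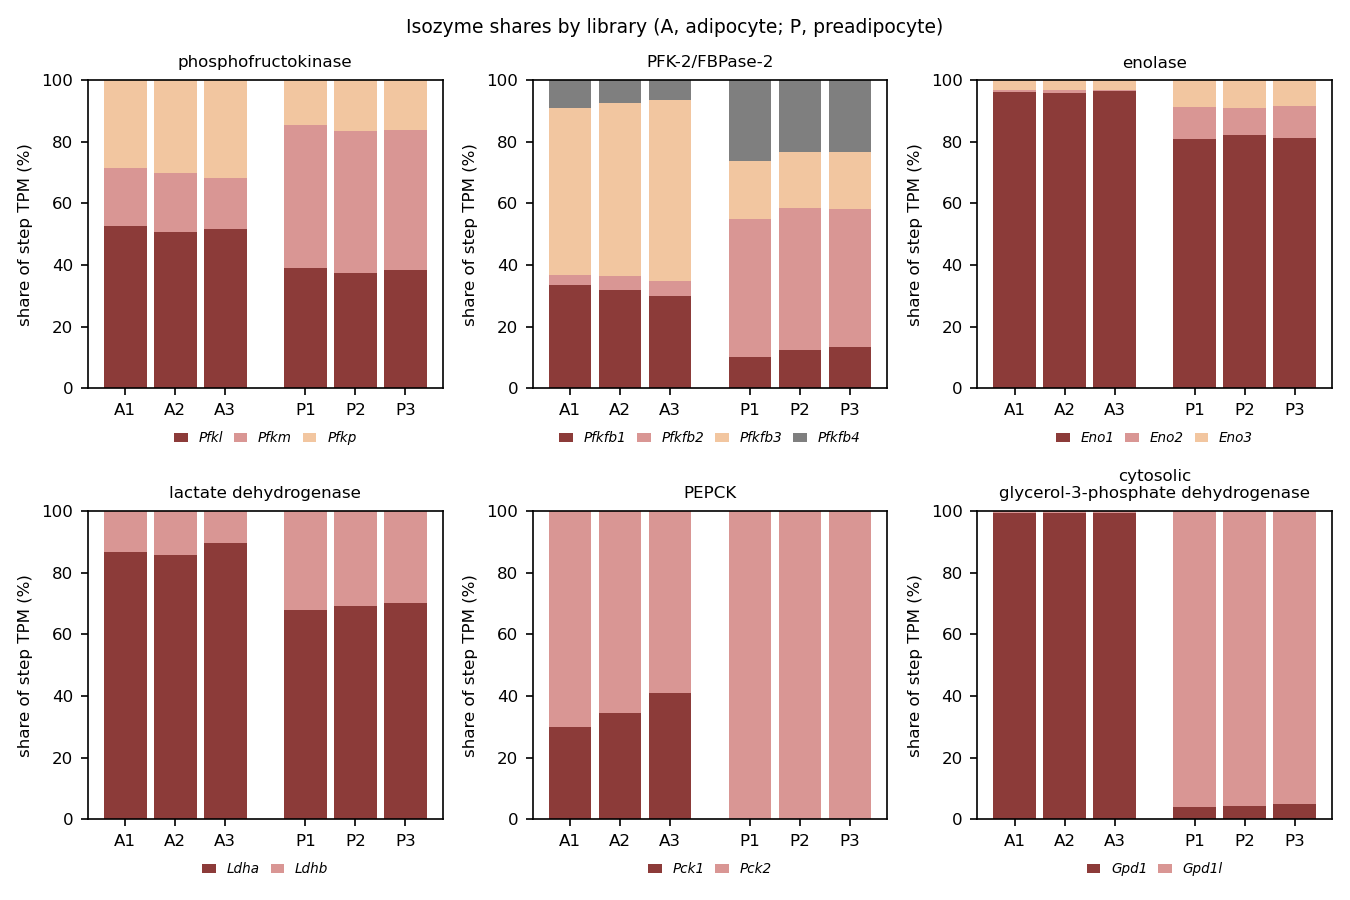
Share of each isozyme in the summed TPM of its step (y axis, %) in each of the 6 libraries (x axis, adipocyte A1 to A3, preadipocyte P1 to P3). Each bar is 1 library and sums to 100%, and isozymes with almost no TPM in any library are not visible. Pfkl, Pfkfb3 and Gpd1 lead their steps in adipocytes, and Pfkm, Pfkfb2 and Gpd1l lead them in preadipocytes.

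The deposited length of a gene is a mean over its transcripts weighted by their abundance in that library, so it moves when the mix of transcripts changes. Of 34 members with such a length in both states, Pfkfb1 was the only one whose groups did not overlap and whose means differed by at least 10%. That is 2.94% of the 34, against 8.09% of 14594 genes with a length in both states. Pfkfb1 had 1654.53, 1575.53 and 1593.63 bases in adipocytes and 1330.31, 1367.19 and 1158.56 bases in preadipocytes, 25.1% longer in adipocytes over 7 annotated transcripts. The preadipocyte lengths rest on 172 counts in the 3 libraries together. In Tigar, Slc16a3 and Eno2 the means differed by 23.9%, -18.2% and -17.1%, but the groups overlapped. Leaving out single libraries gave 1 to 4 such members, the most without adipocyte library 3, when Tigar, Eno2 and Slc16a3 joined Pfkfb1. The tables hold 1 value per gene, so the M1 and M2 transcripts of Pkm were not separated.

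From triose phosphate to pyruvate, 6 of 8 genes rose and the enolases Eno2 and Eno3 fell. Gapdh, which oxidises glyceraldehyde 3-phosphate (ENSMUSG00000057666.18, chromosome 6, 125161715 to 125166467), had 3578, 2462 and 2729 CPM in adipocytes and 766, 620.4 and 634 CPM in preadipocytes. The log2 fold change was 2.12 (SE 0.15, edgeR adjusted p = 2.08e-06) for a gene often used as a loading control. Pgk1, the first enzyme of the pathway to yield ATP, had 1226, 1087 and 1330.0 CPM in adipocytes and 294, 269 and 269.9 CPM in preadipocytes, a log2 fold change of 2.13. Pgam1, the phosphoglycerate mutase of most tissues, had 2029, 1918 and 2115 CPM in adipocytes and 286, 292 and 288 CPM in preadipocytes. Its log2 fold change was 2.81 (SE 0.077, and 0.086 with its near-identical copy summed). Its muscle counterpart Pgam2 was low in both states, at 2.43 ± 0.444 CPM in adipocytes and 0.954 ± 0.0926 CPM in preadipocytes (SD, n = 3 each), with a log2 fold change of 1.34 and 0.296% and 0.813% of the step's TPM in adipocytes and preadipocytes. Pkm, whose product turns phosphoenolpyruvate to pyruvate (ENSMUSG00000032294.17, chromosome 9, 59656368 to 59679375), had 1593, 1196 and 1354 CPM in adipocytes and 659, 530.5 and 536 CPM in preadipocytes. Its log2 fold change of 1.26 (SE 0.13, edgeR adjusted p = 2.29e-05) stood beside 2.12 for Gapdh, 2.13 for Pgk1 and 2.81 for Pgam1.

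The summed TPM of the enolase step, which carries no TMM scaling, overlapped between the states. By CPM, 1 isozyme was higher and 2 were lower in adipocytes. Eno1, the ubiquitous form (ENSMUSG00000063524.13, chromosome 4, 150236721 to 150248879), had 396, 333 and 376 CPM in adipocytes and 252, 213.5 and 227 CPM in preadipocytes. The adipocyte values were all higher, by 0.67 in log2 units (SE 0.097, edgeR adjusted p = 2.15e-04), but with limma on log2(TPM + 1) the value was 0.14 and did not pass (adjusted p = 0.19). Eno2, the neuronal form (ENSMUSG00000004267.16, chromosome 6, 124760053 to 124769673), had 2.25, 2.01 and 2.81 CPM in adipocytes and 34.4, 27.3 and 26.2 CPM in preadipocytes. It fell by 3.63 in log2 units (SE 0.17, edgeR adjusted p = 1.19e-07), the largest fall among the members. Eno3, the muscle form (ENSMUSG00000060600.15, chromosome 11, 70657202 to 70662513), had 9.51, 7.19 and 7.87 CPM in adipocytes and 20.7, 16.95 and 16.99 CPM in preadipocytes, and fell by 1.15 (SE 0.14, edgeR adjusted p = 6.67e-05). The 3 genes and Eno4 summed to 305, 252 and 285 TPM in adipocytes and to 318, 281 and 304 TPM in preadipocytes, ranges that overlap. In CPM the 3 genes together did not overlap, adipocytes being higher, so the overlap depends on the unit. Eno1 held 96.0% ± 0.25 of the step's TPM in adipocytes and 81.4% ± 0.71 in preadipocytes, Eno2 held 0.757% ± 0.15 and 9.79% ± 0.95, and Eno3 held 3.21% ± 0.083 and 8.78% ± 0.35, in adipocytes and preadipocytes (SD, n = 3 each). Eno4 held at most 0.063% in any library. The 5 neuron markers, relevant to Eno2, summed to 4.111 to 5.62 CPM in adipocyte and 0.4345 to 1.213 CPM in preadipocyte libraries, with Rbfox3 at 0 in all 6 libraries. The most abundant of them was Snap25, at 3.78 ± 0.929 CPM in adipocytes against 0 counts in preadipocytes. Syp averaged 1.24 ± 0.757 CPM in adipocytes and 0.536 ± 0.375 CPM in preadipocytes, and the groups overlapped. Stmn2 and Tubb3 went the other way, with 0 and 3 counts in adipocytes against 5 and 14 in preadipocytes. The 6 skeletal muscle markers are relevant to Eno3, Pgam2 and Pfkm. They summed to 1.298 to 2.378 CPM in adipocyte and 0.6534 to 0.711 CPM in preadipocyte libraries. Myod1, Myog, Myh3 and Ckm were at 0 in all 6 libraries. Acta1, the most abundant, averaged 1.54 ± 0.410 CPM in adipocytes and 0.0896 ± 0.0604 CPM in preadipocytes. Ttn was lower in adipocytes, at 0.264 ± 0.146 CPM against 0.587 ± 0.0815 CPM in preadipocytes (log2 fold change -1.13, edgeR adjusted p = 0.029).

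Expected counts divide reads that match several genes by a model, and Gapdh and Eno1 have near-identical copies that took many of these reads. A copy was counted where at least 80% of its 31-base words lie in the member. Gapdh has 19 such copies, of which Gm13394 and Gm7336 held the most. Gm13394 averaged 1512 ± 543 CPM in adipocytes and 319 ± 84.5 CPM in preadipocytes (SD, n = 3 each). The Gapdh row held 57.7%, 63.3% and 63.7% of the sum over Gapdh and its copies in adipocytes, and 59.0%, 66.7% and 64.0% in preadipocytes. Eno1 held 41.3%, 42.3% and 42.6% of its sum with Eno1b and Gm4735 in adipocytes, and 41.6%, 42.7% and 42.8% in preadipocytes. The division was close to the same in both states, and with copies summed the log2 fold changes were 2.16 for Gapdh (SE 0.19, edgeR adjusted p = 9.67e-06) and 0.68 for Eno1 (SE 0.1, adjusted p = 3.12e-04). The levels of both genes are uncertain for this reason. With the copies counted as Eno1, its share of the enolase step differed by 6.21 points between adipocytes and preadipocytes, against 14.6 points without them. Pgam1 and Pgk1 held 96.3% ± 4.8 and 95.7% ± 3.9 of such sums in adipocytes and 96.5% ± 4.2 and 98.2% ± 3.0 in preadipocytes. For each of these genes library 1 had the lowest share of its group. In adipocyte and preadipocyte library 1 it was 90.8% and 91.9% for Pgam1, and 91.5% and 94.7% for Pgk1.

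**Figure D3:**
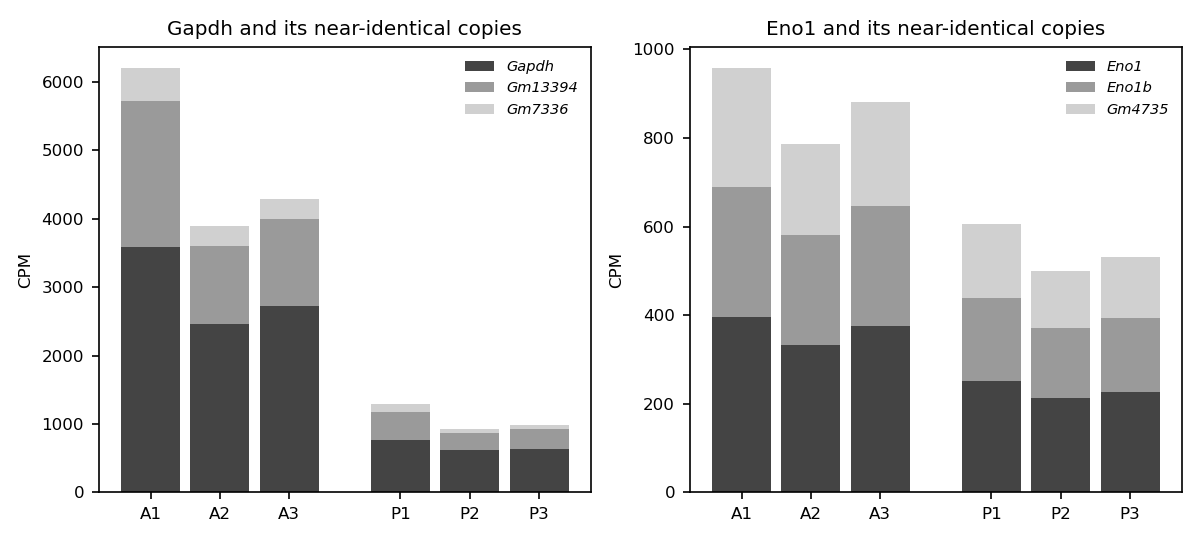
CPM (y axis) of Gapdh with its most abundant copies Gm13394 and Gm7336 on the left, and of Eno1 with Eno1b and Gm4735 on the right, stacked for each library (x axis, adipocyte A1 to A3, preadipocyte P1 to P3). Eno1 holds 41.3% to 42.8% of its stack in all 6 libraries, and the Gapdh stacks are higher in every adipocyte library.

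All 4 genes that make and move lactate rose, but by unequal amounts. Ldha, the M subunit of lactate dehydrogenase (ENSMUSG00000063229.15, chromosome 7, 46841475 to 46855627), had 2105, 1633 and 1943 CPM in adipocytes and 231, 202 and 201 CPM in preadipocytes. Ldhb, the H subunit (ENSMUSG00000030246.11, chromosome 6, 142490249 to 142507957), had 259, 216 and 182 CPM in adipocytes and 87.6, 70.1 and 69.2 CPM in preadipocytes. Neither gene overlapped between the groups, with log2 fold changes of 3.16 for Ldha (SE 0.12, edgeR adjusted p = 3.54e-08) and 1.53 for Ldhb (SE 0.15, adjusted p = 1.39e-05). The ratio of Ldha to Ldhb TPM was 6.51, 6.05 and 8.58 in adipocytes and 2.11, 2.25 and 2.34 in preadipocytes (two-sided exact permutation p = 0.1, the smallest possible). Ldha led the step in both states, with 87.4% ± 2.0 of its TPM in adipocytes and 69.1% ± 1.1 in preadipocytes (SD, n = 3 each), and the testis form Ldhc was at 0.

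The transporters were far below the dehydrogenases. Slc16a1, which encodes MCT1 (ENSMUSG00000032902.1, chromosome 3, 104638668 to 104658462), had 68.5, 79.0 and 83.2 CPM in adipocytes and 43.6, 51.3 and 49.7 CPM in preadipocytes. It was higher in every adipocyte library, by 0.67 in log2 units (SE 0.1, edgeR adjusted p = 2.64e-04), though with limma on log2(TPM + 1) the value was 0.14 (adjusted p = 0.31). Slc16a3, which encodes the lactate exporter MCT4, had 2.25, 2.20 and 2.68 CPM in adipocytes and 1.72, 1.19 and 1.78 CPM in preadipocytes. Its log2 fold change of 0.60 (SE 0.21, edgeR adjusted p = 0.028) rests on 161 counts in adipocytes and 123 in preadipocytes. That call was lost with DESeq2 (0.66, adjusted p = 0.064), with upper-quartile factors (0.47), total counts (0.28) and limma on log2(TPM + 1) (0.28), without adipocyte library 3 (0.56) and without preadipocyte library 2 (0.44). Slc16a1 held 88.2% ± 0.83 of the TPM of the 4 monocarboxylate transporter genes in adipocytes and 92.2% ± 1.3 in preadipocytes, Slc16a3 held 7.74% ± 1.7 and 6.56% ± 1.2, and Slc16a8 held 4.10% ± 1.3 and 1.19% ± 0.73, in adipocytes and preadipocytes. Slc16a7 was at or near 0. The step total was 26.2 ± 3.01 TPM in adipocytes and 22.5 ± 2.50 TPM in preadipocytes, and the libraries overlapped. TPM carries no TMM scaling, and in CPM the same genes together did not overlap, adipocytes being higher.

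In the oxidative arm of the pentose phosphate pathway the 3 cytosolic enzymes rose and the enzyme of the endoplasmic reticulum did not pass. G6pdx, which commits glucose 6-phosphate to the pathway and makes NADPH (ENSMUSG00000031400.10, chromosome X, 74409483 to 74429194), had 267, 231 and 227 CPM in adipocytes and 58.7, 51.3 and 52.1 CPM in preadipocytes. Pgd, the second NADPH-producing enzyme (ENSMUSG00000028961.15, chromosome 4, 149149991 to 149166771), had 414, 338 and 357 CPM in adipocytes and 90.3, 75.1 and 78.0 CPM in preadipocytes. The log2 fold changes of this pair were close, 2.16 for G6pdx (SE 0.096, edgeR adjusted p = 9.82e-08) and 2.19 for Pgd (SE 0.11, adjusted p = 2.03e-07). Pgls, the lactonase between them, had 133, 95.9 and 90.7 CPM in adipocytes and 65.8, 44.3 and 48.8 CPM in preadipocytes. Its log2 fold change was 1.01 (SE 0.18, edgeR adjusted p = 9.35e-04), and library 1 was the highest of each group. H6pd, which acts on glucose 6-phosphate inside the endoplasmic reticulum (ENSMUSG00000028980.14, chromosome 4, 149979475 to 150009023), had 208, 179 and 184 CPM in adipocytes and 198, 186 and 191.5 CPM in preadipocytes. The groups overlapped, with a log2 fold change of -0.01 (SE 0.081, edgeR adjusted p = 0.91). H6pd was called lower when the scaling was changed to total counts (-0.34, adjusted p = 0.0031). It was also called lower with limma on log2(TPM + 1) (-0.49, adjusted p = 3.00e-04), which changes the scaling, the unit and the test together. The ratio of G6pdx to H6pd TPM, which needs no scaling between libraries, was 2.33, 2.42 and 2.33 in adipocytes and 0.572, 0.531 and 0.528 in preadipocytes, so G6pdx was above H6pd in each adipocyte library and below it in each preadipocyte library.

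All 4 genes of the non-oxidative arm rose at least 2-fold, the transferases more than the isomerases. Taldo1, transaldolase (ENSMUSG00000025503.5, chromosome 7, 141392199 to 141402968), had 533.5, 463 and 439 CPM in adipocytes and 31.3, 28.4 and 29.0 CPM in preadipocytes. Tkt, transketolase (ENSMUSG00000021957.7, chromosome 14, 30548359 to 30574720), had 1125, 900.5 and 909.5 CPM in adipocytes and 95.9, 78.4 and 82.3 CPM in preadipocytes. The groups were far apart, with log2 fold changes of 4.01 for Taldo1 (SE 0.1, edgeR adjusted p = 5.36e-09) and 3.52 for Tkt (SE 0.13, adjusted p = 2.93e-08). Tkt stayed above Taldo1 per length, with a ratio of Taldo1 to Tkt TPM of 0.906 ± 0.039 in adipocytes and 0.626 ± 0.050 in preadipocytes (SD, n = 3 each). Rpia and Rpe, which interconvert the pentose phosphates, averaged 50.7 ± 4.16 and 67.3 ± 12.5 CPM in adipocytes and 24.8 ± 2.87 and 23.4 ± 1.76 CPM in preadipocytes. Their log2 fold changes were 1.03 for Rpia and 1.53 for Rpe. Rpe was the less even of the pair, with 54.8, 67.4 and 79.7 CPM in the 3 adipocyte libraries.

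Pck1, the cytosolic PEPCK and the control point of glyceroneogenesis in fat (ENSMUSG00000027513.11, chromosome 2, 173153048 to 173159273), had counts in every adipocyte library and in no preadipocyte library. It had 57.5, 51.7 and 68.2 CPM in adipocyte libraries, 4014 counts in all, and 0 counts in each preadipocyte library. Taking 3 counts over the preadipocyte group as the floor, 0.0383 CPM, Pck1 was at least 1551-fold higher in adipocytes (edgeR adjusted p = 8.76e-08). Pck2, the mitochondrial PEPCK (ENSMUSG00000040618.7, chromosome 14, 55540266 to 55551242), had 126, 98.2 and 98.0 CPM in adipocytes and 50.9, 41.1 and 43.0 CPM in preadipocytes. It was higher in every adipocyte library, by 1.25 in log2 units (SE 0.13, edgeR adjusted p = 1.99e-05). Pck2 was the more abundant of the pair per length in all 6 libraries, and Pck1 held 30.0%, 34.4% and 41.1% of their TPM in adipocytes and 0% in preadipocytes.

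The members that act on glycerol phosphate also rose. Gpd2, the dehydrogenase of the inner mitochondrial membrane (ENSMUSG00000026827.12, chromosome 2, 57237635 to 57370719), had 459, 511.5 and 456 CPM in adipocytes and 31.2, 34.6 and 34.4 CPM in preadipocytes, a log2 fold change of 3.83 (SE 0.092, edgeR adjusted p = 3.78e-09). Gpd1l, a cytosolic relative of Gpd1 (ENSMUSG00000050627.13, chromosome 9, 114899341 to 114933987), had 53.6, 52.5 and 48.1 CPM in adipocytes and 20.3, 22.6 and 21.1 CPM in preadipocytes, a log2 fold change of 1.27 (SE 0.084, edgeR adjusted p = 1.19e-06). Neither gene overlapped between the groups. Gpd1, the main cytosolic form, averaged 4996 ± 491 CPM in adipocytes and 0.611 ± 0.0892 CPM in preadipocytes (SD, n = 3 each), and Gpd1l held 0.664% ± 0.048 of the TPM of the pair in adipocytes, against 95.6% ± 0.61 in preadipocytes. The level of Gpd1l was higher in adipocytes while its share of the step was lower.

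**Figure D4:**
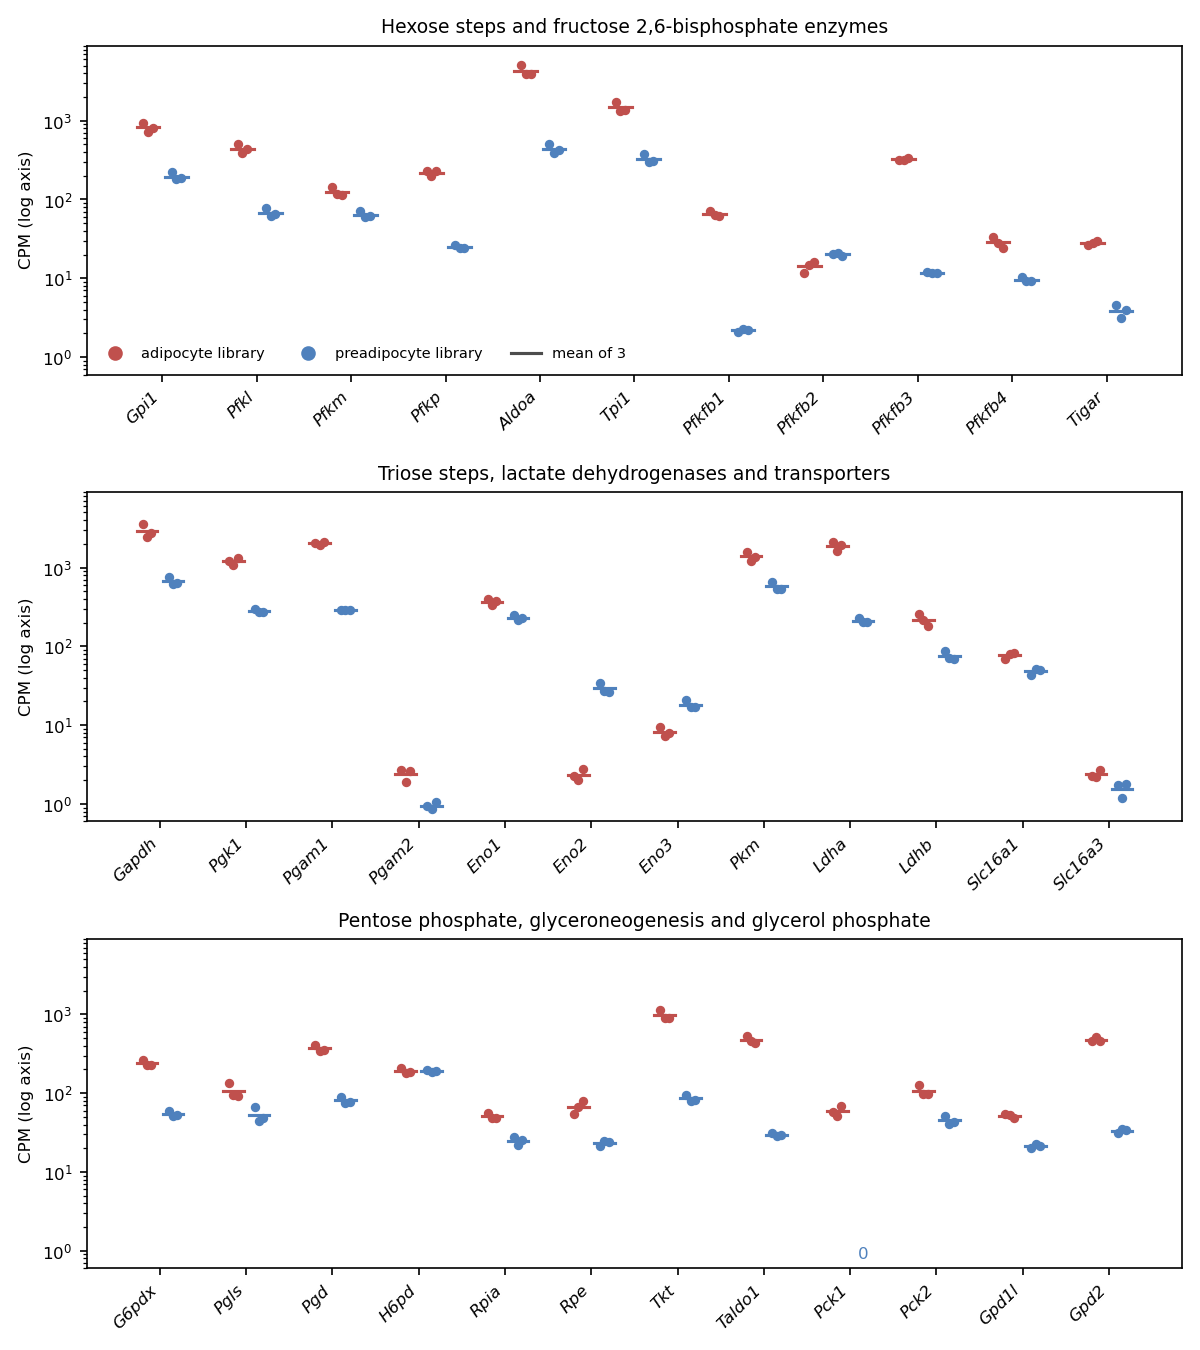
CPM (y axis, log scale) of the 35 tested members in each library, adipocyte libraries in red left of preadipocyte libraries in blue, with the mean of 3 as a bar. The groups are apart for every gene but H6pd, and Pck1 has 0 counts in the preadipocyte libraries, written as 0.

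Per length, the order of the genes differed between the states. In adipocytes Aldoa led with 5368, 4099 and 4175 TPM, followed by Gapdh at 3156 ± 451, Ldha at 1710.0 ± 200, Pgam1 at 1553 ± 97.1 and Tpi1 at 1333 ± 174 TPM. In preadipocytes Gapdh led with 1096, 1006 and 1045 TPM, followed by Aldoa at 639 ± 70.1, Pkm at 489.9 ± 42.4, Tpi1 at 437 ± 43.2 and Pgam1 at 319 ± 15.3 TPM (SD, n = 3 each). These are the levels of each gene's own row, and the leader in adipocytes depends on it. Summed with its copies, an alternative chosen after seeing the data, Gapdh had 7399, 4838 and 5446 TPM in adipocytes and 2163, 1679 and 1817 TPM in preadipocytes, and was above Aldoa in all 6 libraries. Summed in the same way, Eno1 had 754 ± 73.2 TPM in adipocytes and 674 ± 44.6 TPM in preadipocytes (SD, n = 3 each), ranks 8 and 2 in place of its own row's ranks 11 and 8 in adipocytes and preadipocytes. By own rows, Ldha was at rank 3 in adipocytes and at rank 7 in preadipocytes, and Pkm at rank 7 in adipocytes and at rank 3 in preadipocytes. Gpd2 and Pfkfb3 stood at ranks 17 and 18 in adipocytes and at ranks 27 and 30 in preadipocytes, while Eno2 was at rank 34 in adipocytes and at rank 20 in preadipocytes, and H6pd at rank 23 in adipocytes and at rank 13 in preadipocytes. Neighbours in the order often did not differ beyond their spread: 19 of 34 adjacent pairs overlapped in adipocytes, among them Ldha with Pgam1 and Pgam1 with Tpi1, and 13 of 33 in preadipocytes, among them Pgam1 with Pgk1.

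**Figure D5:**
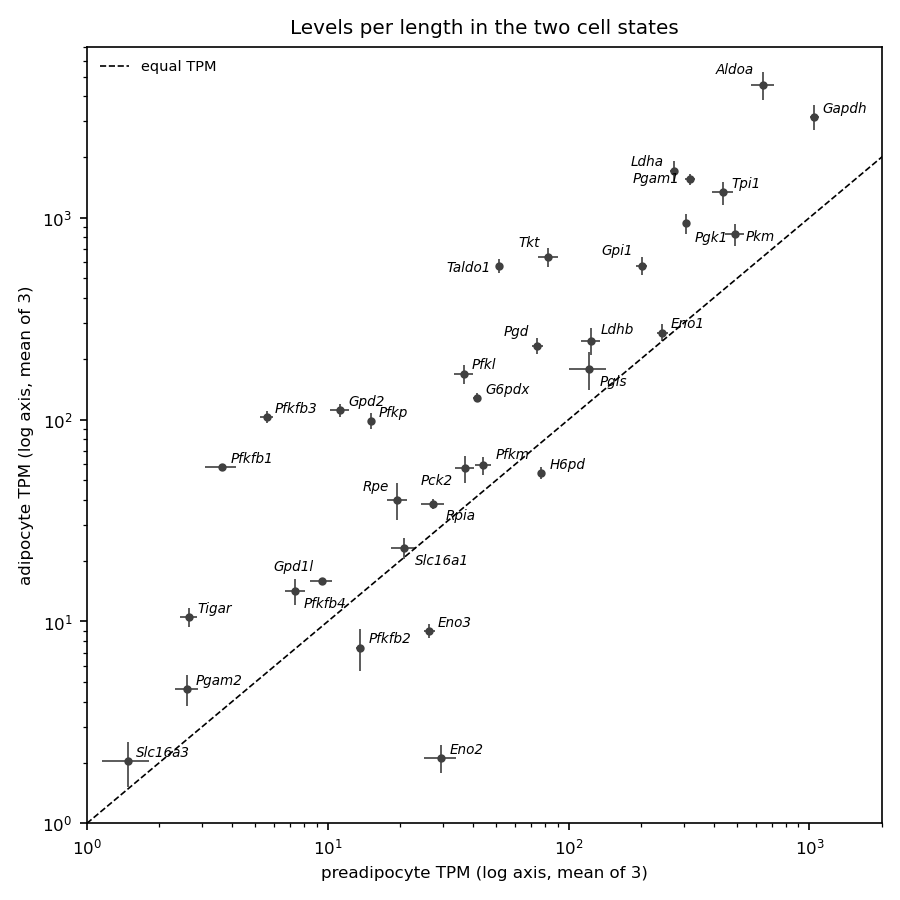
Mean TPM in adipocytes (y axis) against mean TPM in preadipocytes (x axis), both on log scales, with SD over 3 libraries as bars, for the members with at least 1 TPM in preadipocytes. Pck1, Aldoc and Fbp2 are below that and are not drawn. Points above the dashed line have more TPM in adipocytes, and Eno2, Eno3, Pfkfb2 and H6pd lie below it.

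Other genes of these pathways, their transcriptional regulators and hypoxia-induced genes outside glycolysis were taken from lists. Over these lists 46 of 70 tested were higher and 15 lower, where 35.7% and 37.9% of all tested genes were called in those directions. Of 11 tested genes that bring in and phosphorylate hexose, 6 rose and 4 fell, with a median log2 fold change of 0.69. The insulin-responsive transporter Slc2a4 averaged 477 ± 27.5 CPM in adipocytes and had 1 count in preadipocytes, a ratio of 37470.0 (95% exact Poisson interval 6725 to 1480000). Hexokinase Hk1 fell to 27.8 ± 3.06 CPM in adipocytes, against 79.5 ± 7.97 CPM in preadipocytes (log2 fold change -1.51, edgeR adjusted p = 2.20e-06). Other isoforms of the steps were mostly too low to test, and the 4 tested all rose: Gpd1 with the largest log2 fold change, Pgam5, Slc16a8 and Bpgm.

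Of 11 genes of pyruvate use and transporter chaperones, 9 rose and 2 fell, with a median log2 fold change of 2.22. Pdhb, a subunit of pyruvate dehydrogenase, averaged 961 ± 14.3 CPM in adipocytes and 40.3 ± 0.721 CPM in preadipocytes, a log2 fold change of 4.57 (SE 0.079, edgeR adjusted p = 1.43e-09). Emb, a chaperone of monocarboxylate transporters, fell to 1.05 ± 0.249 CPM in adipocytes, against 11.9 ± 1.38 CPM in preadipocytes (log2 fold change -3.49). Of 8 other gluconeogenic and NADPH-linked genes 6 rose and 1 fell. The folate enzyme gene Aldh1l1 averaged 10.6 ± 1.31 CPM in adipocytes and had 2 counts in preadipocytes, a ratio of 418 (95% exact Poisson interval 116 to 3450.0). Of 12 genes of pentose use and side branches 7 rose and 2 fell, Prps2 and Gfpt1. The groups overlapped for Gfpt1, and 1 gene was lower without adipocyte library 1 or 2 or without preadipocyte library 2 or 3, 4 under total counts and 5 under limma on log2(TPM + 1). Aqp7, the glycerol channel, averaged 54.4 ± 3.06 CPM in adipocytes and 0.130 ± 0.0833 CPM in preadipocytes, and Prps2, which makes phosphoribosyl pyrophosphate, fell to 14.1 ± 1.82 CPM in adipocytes, against 59.1 ± 4.41 CPM in preadipocytes.

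Among 13 transcriptional regulators of these genes 8 rose and 2 fell, with a median log2 fold change of 1.75. With the replicate number as a block 10 were higher and 3 lower, and 5 were lower under limma on log2(TPM + 1) and likewise under total counts. Mlxipl, which encodes the glucose-responsive factor ChREBP, averaged 69.1 ± 7.59 CPM in adipocytes and had 1 count in preadipocytes, a ratio of 5434 (95% exact Poisson interval 975 to 214600). Hif1a, which encodes the oxygen-regulated factor that acts on glycolytic genes, fell to 104 ± 17.4 CPM in adipocytes, against 214 ± 27.2 CPM in preadipocytes (log2 fold change -1.04, edgeR adjusted p = 1.35e-04). Epas1, on the same list as Hif1a, rose to 64.6 ± 2.32 CPM in adipocytes, against 6.35 ± 0.552 CPM in preadipocytes (log2 fold change 3.34, edgeR adjusted p = 7.84e-09). Of 11 tested hypoxia-induced genes outside glycolysis 6 rose and 4 fell. Bnip3 was the leading one upward, at 852 ± 86.2 CPM in adipocytes and 31.6 ± 0.827 CPM in preadipocytes (log2 fold change 4.75), and Adm the leading one downward, at 1.43 ± 0.592 CPM in adipocytes and 23.9 ± 2.75 CPM in preadipocytes (log2 fold change -4.05).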

How the data were processed

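The authors deposited 1 gene table per library, which per the file headers gives each gene its expected count, TPM, FPKM, length and effective length. The submitters' processing notes name Bowtie2, Bowtie, RSEM and DESeq2 and the builds mm10 and GRCm38, without versions or roles. The deposited expected counts are estimates that divide reads matching several genes, and the deposited TPM and FPKM values are scaled within each library and per length. Strand is not given in the sources used here.

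Identifiers were matched without version to GENCODE M21, and 54723 of 54752 matched. Gyk and Rpel1, 2 listed symbols, matched none. Expected counts were rounded, filtered with filterByExpr, scaled by TMM and tested in 1 fit over all genes with edgeR 4.0.16 (R 4.3.3), group being the only term, with Benjamini-Hochberg adjustment at 0.05. The test was checked on simulated counts in which few genes changed, as many up as down. In the real data 73.5% of tested genes were called, and the check does not cover such wide change. The error of a mean is the SD of 3 libraries, and that of a fold change its standard error (SE). The SE was derived from the edgeR test, as the size of the log2 fold change over the square root of F. Where a group had 0 counts, a bound was set from 3 counts over that group, and where it had 1 to 3, a ratio with an exact 95% Poisson interval is given. Bounds and intervals cover counting error only. Isozyme shares used TPM with two-sided exact permutation tests over samples. Promoters came from RefSeq (GRCm38.p6), and motifs were searched on both strands. No protein sequences were used here.

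Deviations from group means correlated at 0.66, 0.30 and 0.26 between adipocyte and preadipocyte libraries numbered 1, 2 and 3, each above 0.1, and between unequal numbers at -0.57 to 0.45, the highest for adipocyte library 3 with preadipocyte library 2. By the limit of 0.1 the replicate numbers were taken to pair the libraries and a fit with the number as a block was run. Alternatives were other scalings, DESeq2 1.42.0, limma 3.58.1 on log2(TPM + 1), no filter, effective lengths as offsets, summed near-identical copies, FPKM or count shares and left-out libraries. Named were all 37 members, the leading gene in each direction of each supporting list with at least 1 CPM, isoforms entering a share and the most abundant marker of each cell type. Some genes that this rule would name are not reported here. Gfpt1, Cdk1, Epas1, Ttn, Syp, Stmn2, Tubb3, copies, overlapping genes, the length exceptions and the remaining isoforms were named after their values were seen. Promoters printed are those of the 2 largest rises and the 2 largest falls. The members and lists were chosen with earlier results of these data known.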

Additional observations from a re-analysis of the deposited data

How the results depend on the processing

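Under 17 alternatives for each of 35 members, 577 of 595 log2 fold changes kept their direction and side of the threshold, 9 lost and 2 gained it and 7 changed sign. Members called higher numbered 28 to 31 and lower 2 to 4. The changes of sign were all of H6pd, never past the threshold: 0.05 with DESeq2, 0.05 with RLE size factors, 0.02 with the effective length offset, 0.06 without the low-count filter, and 0.01 without preadipocyte library 1 and 0.07 without adipocyte library 2 or 3, in a range from -0.06 to 0.07 over the left-out libraries. The replicate block gave 31 higher and 3 lower and changed no call of a member; over the supporting lists it gave 49 higher and 18 lower, against 46 and 15, and calls over all genes were 5763 higher and 6212 lower with it. The share of Slc16a3 differed by 1.17 points with TPM and by -0.205 points with expected counts, where the differing gene lengths are not taken into account. The supporting lists had 15 lower genes, and 24 with limma on log2(TPM + 1); the cause was not tested. Members with a changed transcript length numbered 1, and 1 to 4 with single libraries left out. Low counts limit Slc16a3, Pgam2 and the preadipocyte values of Pfkfb1, and reads shared with copies limit the levels of Gapdh and Eno1.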
